A study of Mus musculus with 6 samples.

Results

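The mitochondrial ribosomal protein genes, called MRP genes here, were examined in mouse leukaemia cells on 6 Affymetrix expression arrays. They were taken by symbol: every gene whose array annotation gives a name beginning Mrpl or Mrps followed by a digit, without pseudogene (-ps) names, and only from probe sets that carry 1 gene symbol. This gave 77 genes on 85 probe sets, of 19938 genes named in this way on the array. Where a gene had several, its brightest probe set on average over the 6 arrays was used, and all 77 passed the filter that left out the dimmest 25% of genes, so that 77 of the 14953 genes tested are MRP genes. Mrpl53 is on the array only in a probe set shared with Ccdc142 and is not among the 77.

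All 6 arrays carried RNA of pre-B cells of strain C57BL/6 transformed by BCR-ABL1, a fused and constantly active tyrosine kinase known from human leukaemias, and homozygous for floxed Inpp5d (Inpp5d fl/fl), the gene of the lipid phosphatase SHIP1. Cells of the 3 arrays labelled CRE had been transduced with PMIP-CRE-ERT2, a vector for a tamoxifen-activated Cre recombinase, and cells of the 3 arrays labelled ERT with PMIP-ERT2, which lacks Cre. Both groups were selected with puromycin and given 4-hydroxytamoxifen at 0.5 µM for 2 days. No array held cells with Cre and without floxed alleles, and none held cells without tamoxifen, so effects of Cre and of Inpp5d loss cannot be told apart. Separate cultures are not mentioned in the labels, and p-values therefore measure only the spread between these arrays, which may be technical.

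Inpp5d signal in the arrays labelled CRE was not below that of the controls (log2 values of 13.37, 13.34 and 13.34, against 13.20, 13.21 and 13.17 in the ERT arrays; log2 difference 0.16 ± 0.041, SE; limma adjusted p = 0.0545), and the position of its probe set relative to the floxed exons was not analysed here. A loss of Inpp5d was therefore not seen in this signal, and every direction below is that of arrays as labelled. The array medians ran from 8.19 to 8.23 on the log2 scale in the ERT arrays and from 8.24 to 8.37 in the arrays labelled CRE. The array labelled CRE 3 had a higher Pearson correlation over all probe sets with ERT arrays 1 and 3 (0.996 and 0.997) than with the arrays labelled CRE 1 and 2 (0.994 and 0.995). All 9 B lineage markers with a probe set used here passed the dim filter, with mean log2 signals from 11.04 to 14.3. Of the 8 myeloid markers, 3 passed it, and the summed log2 value of the 8 was 58.8 to 59.2 in the ERT arrays and 60.4 to 61.2 in the arrays labelled CRE, with the lysozyme gene Lyz2 higher (log2 difference 0.79), the granule genes Mpo (0.20, adjusted p = 0.256) and Elane (-0.00051, adjusted p = 0.996) not past the test, and Adgre1, Cd14, Csf1r, Itgam and Ly6g below the filter. Summed log2 values of the other marker lists did not overlap either: 115.7 to 115.9 in the ERT arrays and 116.1 to 116.5 in the arrays labelled CRE for the 9 B lineage genes, 42.52 to 42.95 and 43.01 to 43.65 for 6 T and NK genes (3 past the filter), 30.4 to 30.6 and 30.7 to 31.1 for 4 erythroid and megakaryocyte genes (2 past it), and 53.0 to 53.4 and 53.8 to 54.8 for 6 stromal genes (all past it). In these 4 lists Dntt, the B lineage gene of terminal transferase, was called higher (log2 difference 0.33, adjusted p = 0.0176) and 0 genes lower. Over all genes tested, 20.7% had every array labelled CRE above every ERT array. In bins 1 to 4, the dimmest of 10 bins by mean signal, the median log2 difference of all genes was between 0.088 and 0.12. The 9 B lineage genes lay in bins 8 to 10, where the median of all genes was between -0.044 and -0.0090. Whether the marker sums go beyond the shift of all genes at the same signal was not tested. The part of the marker differences in the results below was not tested either.

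Mitochondria keep a small genome, and a ribosome of their own translates the messenger RNAs made from it into core subunits of the respiratory chain and of ATP synthase. The RNAs of this ribosome are transcribed inside the organelle, whereas its proteins, among them the MRPs, are encoded by nuclear genes, translated in the cytosol and imported. Large-subunit proteins are named Mrpl and small-subunit proteins Mrps, with a few exceptions: Mrps30 and Mrps18a lie in the large subunit, and Mrps36 is now known as a component of the 2-oxoglutarate dehydrogenase complex. Some MRPs have a counterpart in bacterial ribosomes, and others were added in the mitochondrial lineage and carry a mitochondria-specific name.

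Of the 77 MRP genes, 10 were lower in the arrays labelled CRE, 0 were higher and 67 did not pass limma's test at an adjusted p under 0.05. Called lower were 13.0% of the MRP genes, beside 4.13% of all genes tested, and called higher were 0, beside 3.50% of all genes tested (7.62% in either direction). The 10 genes were Mrps27, Mrps25, Mrpl21, Mrpl48, Mrps35, Mrps14, Mrpl9, Mrps30, Mrps33 and Mrpl20, and their differences were small, from 1.16-fold to 1.36-fold lower, with adjusted p from 0.0193 to 0.0471. The median log2 difference over all 77 was -0.12, with the middle 50% of genes from -0.20 to -0.060, and the median over all genes tested was 0.026. In all, 68 of the 77 log2 differences were below 0 (88.3%, against 43.4% of all genes tested). These shares over all genes include dim genes, whereas 76 of the 77 lay in bins 5 to 10 of 10 bins by rising mean signal. Within those bins, 51.9% to 69.4% of all genes were below 0 and 2.21% to 8.56% were called lower. In bulk RNA, less of these transcripts per cell and fewer of the cells that hold most of them cannot be told apart.

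How many genes passed depended on the arrays used. Without ERT array 1, 2 or 3 the count of MRP genes called lower was 0, 0 and 1, beside 0.502%, 0.762% and 1.24% of all genes tested. Without the array labelled CRE 1 or 2 it was 0 and 2, beside 0.669% and 1.83%. Without the array labelled CRE 3 it was 22 (28.6%), beside 9.05% of all genes. The 1 gene without ERT array 3 was 1.3% of the MRP genes and the 2 genes without the array labelled CRE 2 were 2.6%, near the shares over all genes. The median log2 difference of the MRP genes moved far less, from -0.097 without the array labelled CRE 2 to -0.15 without the array labelled CRE 3.

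**Figure D1:**
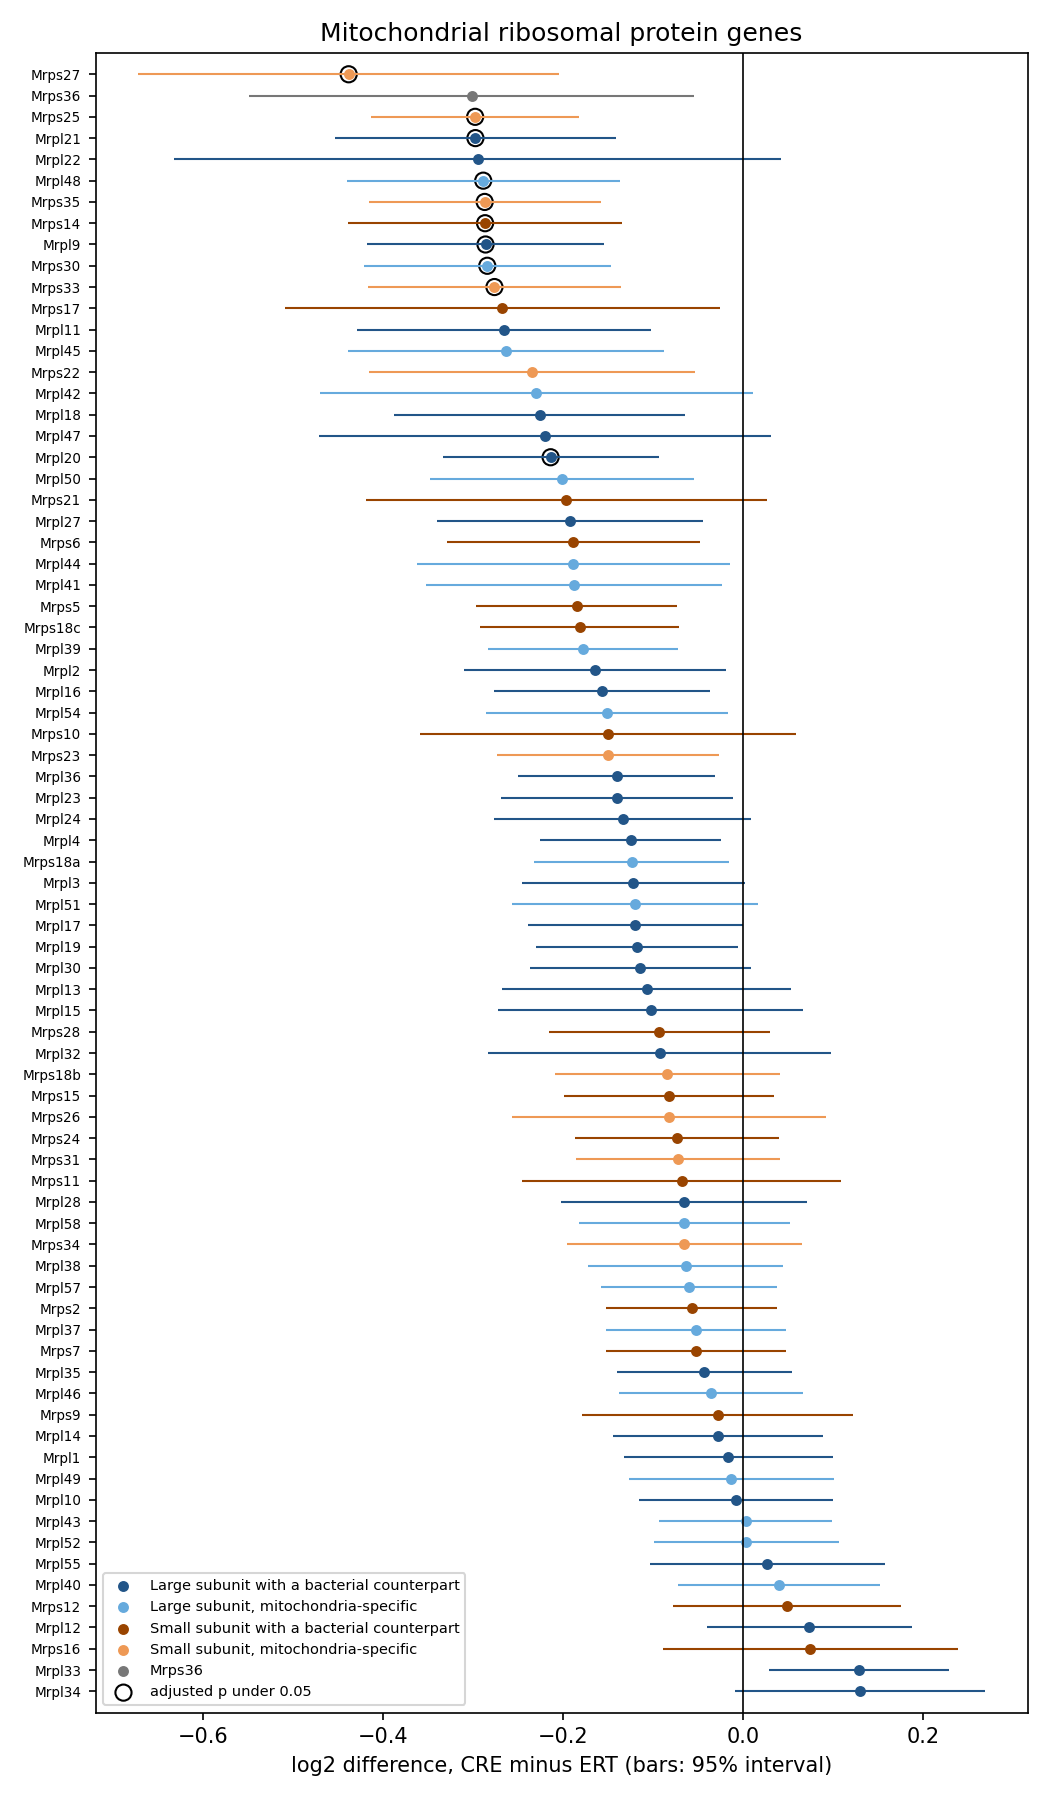
Log2 difference (arrays labelled CRE minus ERT arrays, x axis) of each of the 77 MRP genes, ordered by size, with the 95% interval of limma's moderated fit; colours mark the ribosomal subunit and whether the protein has a bacterial counterpart, and circles mark the 10 genes with an adjusted p under 0.05. The points run from -0.44 for Mrps27 to 0.13 for Mrpl34, and 68 of 77 lie left of 0.

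In the small subunit, 5 of 26 genes were lower (19.2%, beside 4.13% of all genes tested), 0 were higher and 21 did not pass. Of the 5, all but Mrps14 encode proteins that bacterial ribosomes lack. Mrps27, which encodes a protein with pentatricopeptide repeats, had log2 values of 10.19, 10.13 and 10.02 in ERT arrays 1, 2 and 3 and of 9.73, 9.43 and 9.85 in the arrays labelled CRE 1, 2 and 3. The groups did not overlap, and the arrays labelled CRE were spread more widely, with an SD of 0.218 against 0.087 in the ERT arrays. Mrps27 showed the largest log2 difference of any MRP gene, -0.44 ± 0.10 (SE, 95% interval -0.67 to -0.20, adjusted p = 0.0413). Mrps25 stood at 10.16, 10.19 and 10.08 in the ERT arrays and at 9.83, 9.80 and 9.90 in the arrays labelled CRE. With an SD near 0.05 in each group, this gene had the smallest adjusted p of the family (log2 difference -0.30 ± 0.050, adjusted p = 0.0193), and it also passed without ERT array 3, without the array labelled CRE 2 and without the array labelled CRE 3.

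Mrps35 had log2 values of 10.54, 10.40 and 10.46 in the ERT arrays and of 10.17, 10.11 and 10.25 in the arrays labelled CRE (log2 difference -0.29 ± 0.056, adjusted p = 0.0277). Mrps33 had log2 values of 11.82, 11.67 and 11.77 against 11.46, 11.41 and 11.58 (-0.28 ± 0.061, adjusted p = 0.0373). In each of these genes the array labelled CRE 2 was lowest and the array labelled CRE 3 lay closest to the controls, without reaching them. Mrps14 is the counterpart of a bacterial protein of the head of the small subunit, uS14. Its values were 9.93, 9.88 and 9.88 in the ERT arrays and 9.61, 9.48 and 9.74 in the arrays labelled CRE, a log2 difference of -0.29 ± 0.067 (adjusted p = 0.0412). Mrps27 also passed without the array labelled CRE 2 and without the array labelled CRE 3, and Mrps14, Mrps33 and Mrps35 with an array left out only when that array was CRE 3.

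In the large subunit, 5 of 50 genes were lower (10%, beside 4.13% of all genes tested), 0 were higher and 45 did not pass. Mrpl9, Mrpl20 and Mrpl21 have bacterial counterparts, whereas Mrpl48, a protein of the central protuberance, and Mrps30 do not. Mrpl21 had log2 values of 10.07, 10.09 and 10.20 in the ERT arrays and 9.78, 9.73 and 9.95 in the arrays labelled CRE (log2 difference -0.30 ± 0.068, adjusted p = 0.0404). Mrpl48 measured 11.32, 11.15 and 11.30 against 10.97, 10.88 and 11.06 (-0.29 ± 0.066, adjusted p = 0.0404). The ERT array 2 was the lowest control for Mrpl48 and still lay above all arrays labelled CRE. Mrpl9, with log2 values of 10.44, 10.31 and 10.43 in the ERT arrays, measured 10.08, 10.06 and 10.19 in the arrays labelled CRE (-0.29 ± 0.058, adjusted p = 0.0303).

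Mrps30, the large-subunit protein with a small-subunit name, measured 9.96, 9.99 and 9.91 in the ERT arrays and 9.70, 9.55 and 9.75 in the arrays labelled CRE, a log2 difference of -0.28 ± 0.060 (adjusted p = 0.0340). Mrpl20, whose bacterial counterpart bL20 binds ribosomal RNA early in assembly, measured 10.59, 10.58 and 10.51 against 10.34, 10.28 and 10.42. It had the smallest difference of the 10 genes, -0.21 ± 0.052, and the highest adjusted p, 0.0471. When single arrays were removed, each of these 5 large-subunit genes passed only in the absence of CRE 3, which is 1 of 6 such fits.

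**Figure D2:**
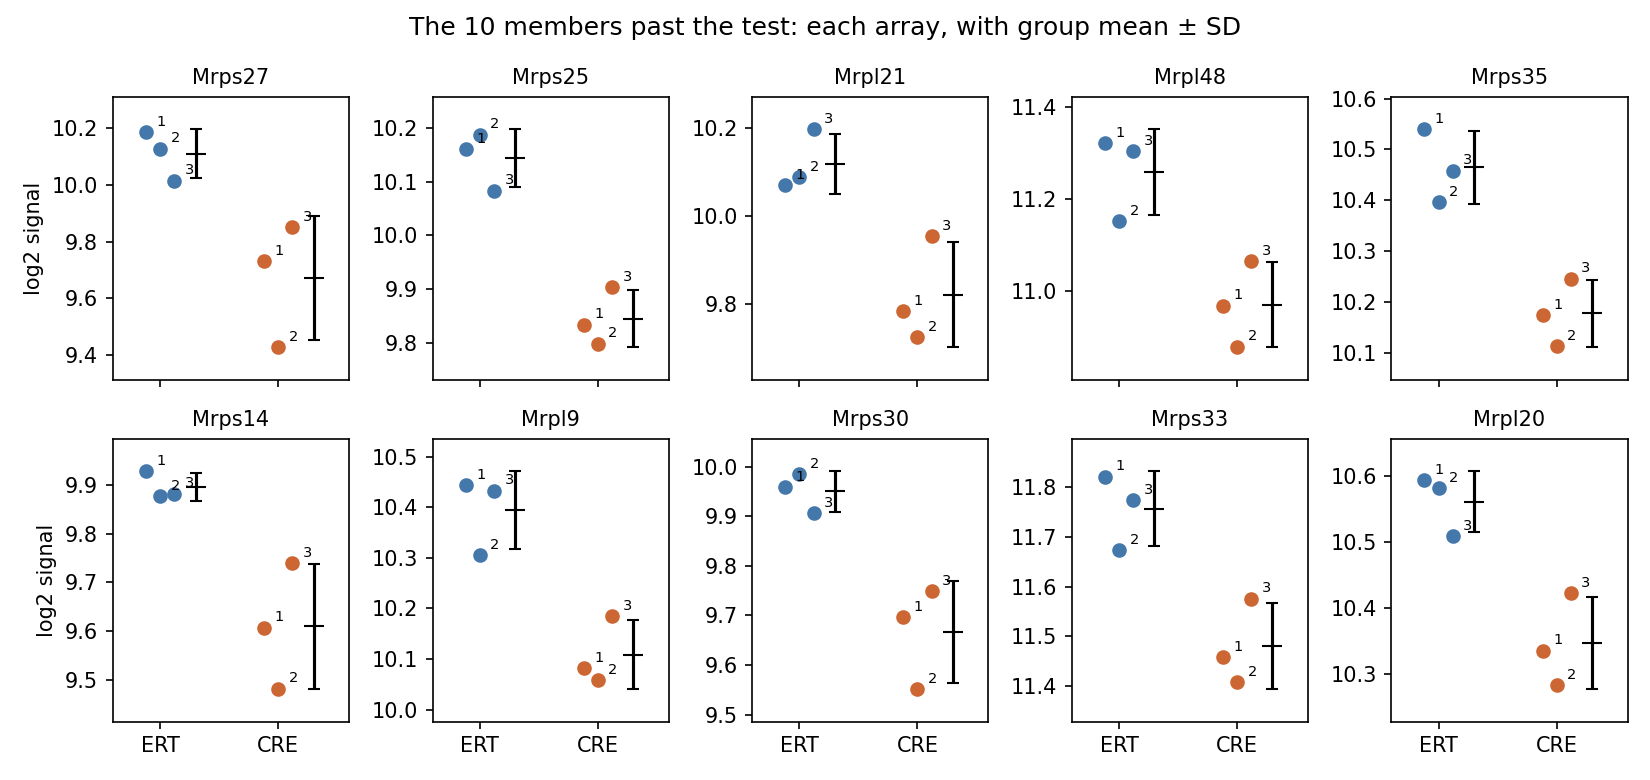
Log2 signal (y axis, a separate range for each gene) of the 10 MRP genes past the test, on ERT arrays (blue) and arrays labelled CRE (orange), with replicate numbers beside the points and the group mean ± SD (n = 3) in black. In each of the 10 genes the groups do not overlap, and the array labelled CRE 3 is the highest of its group.

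Among the genes just outside the threshold, Mrpl39 (log2 difference -0.18, adjusted p = 0.0541), Mrps5 (-0.18, 0.0549), Mrps18c (-0.18, 0.0551) and Mrpl11 (-0.27, 0.0563) also had groups that did not overlap. In total, 35 of 77 MRP genes (45.5%) had all arrays labelled CRE below all ERT arrays, beside 17.7% of all genes tested, and 1 gene, Mrpl33, had all of them above, beside 20.7%. At an unadjusted p under 0.05, 33 MRP genes were lower and 1 was higher, beside 14.4% and 19.0% of all genes tested. The shares over all genes in this paragraph were not matched for signal level. The 95% interval lay below 0 for 33 genes, 23 of which were not called.

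Several large point estimates came with wide intervals. Mrpl22, whose protein lines the exit tunnel, had a log2 difference of -0.29 (95% interval -0.63 to 0.042, adjusted p = 0.190). Its values were 9.27, 9.24 and 9.03 in the ERT arrays and 9.05, 8.51 and 9.11 in the arrays labelled CRE, so that the array labelled CRE 2 stood apart and the groups overlapped. Mrps36 had values of 9.86, 9.64 and 9.62 against 9.50, 9.16 and 9.55, without overlap (-0.30, interval -0.55 to -0.054, adjusted p = 0.10). Mrps17, the counterpart of bacterial uS17, had a log2 difference of -0.27 with an adjusted p of 0.122. Mrpl45, which links the tunnel exit to the inner membrane, measured -0.26 (adjusted p = 0.0671) and Mrpl11, at the base of the stalk where translation factors bind, -0.27 as given above.

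The highest differences were those of Mrpl34 and Mrpl33, which encode very small proteins with bacterial counterparts, and neither passed. Mrpl33 measured 9.10, 9.14 and 9.07 in the ERT arrays and 9.25, 9.20 and 9.24 in the arrays labelled CRE (0.13 ± 0.044, adjusted p = 0.0895). Mrpl34 measured 12.43, 12.55 and 12.39 against 12.68, 12.52 and 12.56, with overlap (0.13 ± 0.061, adjusted p = 0.169). The stalk protein gene Mrpl12 had a log2 difference of 0.074 (interval -0.040 to 0.19), and Mrpl10, its partner in the stalk, had -0.0075 (interval -0.12 to 0.10). Mrps12, the counterpart of the decoding-centre protein uS12, had 0.049 (interval -0.078 to 0.18), and Mrps16 had 0.075 (interval -0.089 to 0.24). Mrpl43, Mrpl52, Mrpl55 and Mrpl40 had log2 differences of 0.0030, 0.0039, 0.027 and 0.040, with intervals that reach from -0.10 to 0.16 at the widest. After each array was centred on its median, the signs of Mrpl12, Mrpl40, Mrpl43, Mrpl52, Mrpl55, Mrps12 and Mrps16 turned negative, while those of Mrpl33 and Mrpl34 stayed positive.

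By place in the ribosome, the medians of the log2 differences ran from -0.087 to -0.19, and differences between these groups were not tested. Large-subunit genes with a bacterial counterpart (3 of 30 lower, 0 higher) had a median of -0.12 and mitochondria-specific large-subunit genes (2 of 20 lower, 0 higher) also -0.12. Small-subunit genes with a bacterial counterpart (1 of 16 lower, 0 higher) had a median of -0.087 and mitochondria-specific small-subunit genes (4 of 10 lower, 0 higher) -0.19. Called lower were 10%, 10%, 6.25% and 40% of these groups in that order, beside 4.13% of all genes tested. In the last of these groups all 10 differences were below 0, from -0.44 for Mrps27 to -0.065 for Mrps34. The counts fell to 0 in each of these 4 groups without ERT array 1, without ERT array 2 or without the array labelled CRE 1. In these fits 0.502%, 0.762% and 0.669% of all genes tested were called lower.

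The arrays were not equally low. The median deviation of an MRP gene from its own mean over the 6 arrays was 0.076, 0.055 and 0.030 in ERT arrays 1, 2 and 3. In the arrays labelled CRE 1, 2 and 3 it was -0.065, -0.13 and 0.0041, beside medians between -0.010 and 0.023 over all genes tested. The array labelled CRE 2 was the lowest of the 6 arrays for 50 of 77 genes, and the array labelled CRE 3 was the highest of its group for 59. Such counts were not taken over all genes tested. Measured against the mean of the ERT arrays, 66, 69 and 60 of the 77 genes were lower in the arrays labelled CRE 1, 2 and 3. The counts were 19, 34 and 56 in ERT arrays 1, 2 and 3. Each ERT array is itself part of that mean, so its count cannot be compared directly with those of the arrays labelled CRE. Large-subunit and small-subunit genes followed the same order over arrays, with medians of -0.12 and -0.14 in the array labelled CRE 2 and of 0.0053 and 0.0029 in the array labelled CRE 3.

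**Figure D3:**
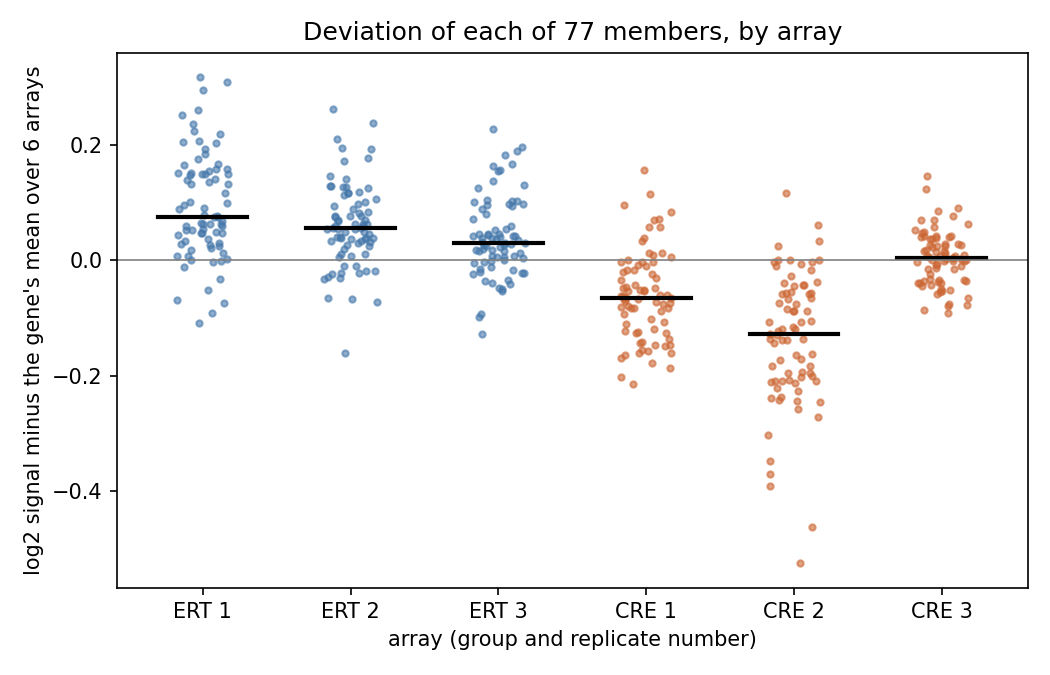
Log2 signal of each of the 77 MRP genes minus the mean of that gene over the 6 arrays (y axis), by array (x axis), with 1 point per gene and a black line at the median. The medians of the ERT arrays lie between 0.030 and 0.076, and that of the array labelled CRE 2 is the lowest at -0.13.

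Signal level moved with the comparison over the whole array. In 10 bins of nearly equal size by mean signal, the median log2 difference of all genes tested was between 0.088 and 0.12 in the 4 dimmest bins, which held 1 MRP gene (Mrps12), and between -0.061 and -0.0055 in the 6 brightest, which held the other 76. Median log2 differences of the MRP genes in those 6 bins were -0.23, -0.23, -0.092, -0.14, -0.11 and -0.12 in order of rising signal, beside -0.0055, -0.054, -0.061, -0.044, -0.030 and -0.0090 for all genes in the same bins. Of the 77 MRP genes, 63 lay below the median of their bin, and the distance from that median was -0.089 at the middle of the 77. After loess normalization between arrays, 10 MRP genes were called lower (13.0%, beside 4.69% of all genes) and 0 higher, with a median log2 difference of -0.094, beside -0.00068 over all genes. Mean signals of MRP genes ran from 8.60 (Mrps12) to 12.96 (Mrpl40), and since probe sets differ in brightness these do not rank the transcripts.

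**Figure D4:**
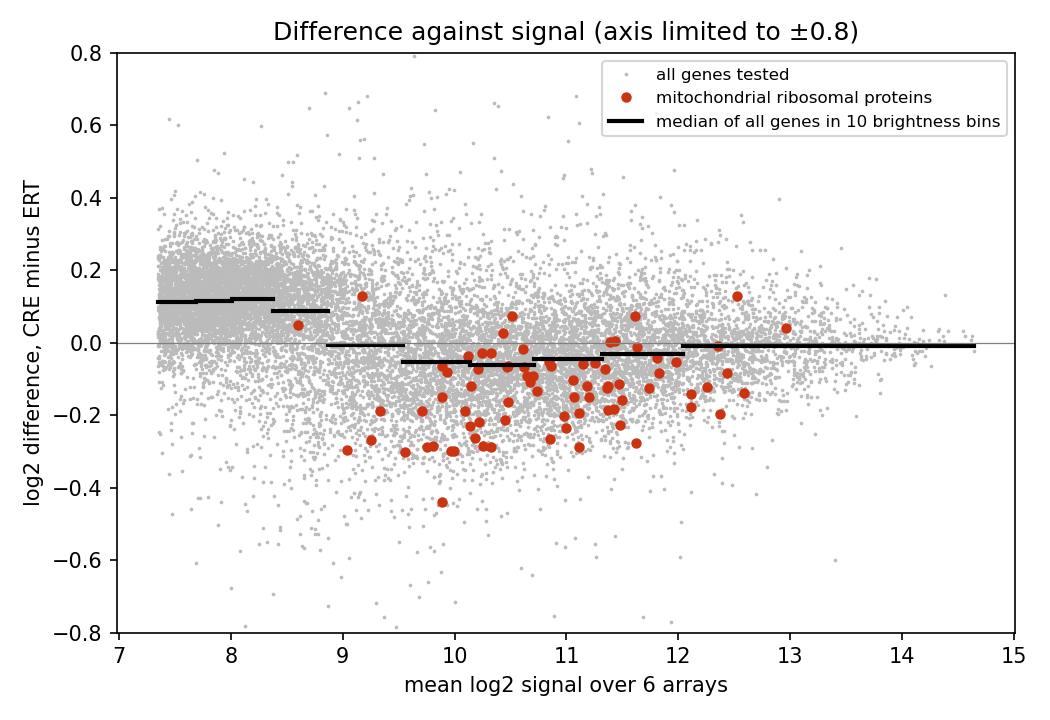
Log2 difference (y axis, limited to 0.8 in either direction, which leaves out 23 genes) against mean log2 signal over the 6 arrays (x axis) for all 14953 genes tested (grey) and the 77 MRP genes (red), with black lines at the median of all genes in each of 10 bins. The black lines lie above 0 in the 4 dimmest bins, and 63 of the 77 red points lie below the line of their bin.

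For 8 of the 77 genes a further probe set could be set beside the one used. In 6 of them (Mrpl23, Mrpl27, Mrpl51, Mrps5, Mrps33 and Mrps36) the further probe set was also lower in the arrays labelled CRE, by log2 differences of means of -0.14, -0.19, -0.20, -0.17, -0.24 and -0.34, each without overlap of the groups. Over all genes tested, 17.7% had every array labelled CRE below every ERT array, and this share was not counted over further probe sets. Both probe sets of a gene read the same RNA on the same arrays, so the further one is not independent support. For Mrps33, which was called, the further probe set measured 11.39, 11.23 and 11.34 in the ERT arrays and 11.07, 10.99 and 11.16 in the arrays labelled CRE. Both probe sets of Mrpl23 gave nearly equal values on every array and may share probes. In Mrpl41 and Mrpl47 the dimmer probe set had the opposite sign, 0.069 and 0.19, against -0.19 and -0.22 in the brighter probe set, and none of these 4 probe sets separated the groups. The probe set shared by Ccdc142 and Mrpl53 measured 9.55, 9.40 and 9.51 in the ERT arrays and 9.40, 9.31 and 9.37 in the arrays labelled CRE.

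Nuclear genes of the mitochondrial expression machinery are known to be bound by factors such as GABPA, of the ETS family, NRF1 and YY1, and promoters of MRP genes were searched for the letters of their motifs. RefSeq promoter sequences (GRCm38.p6, 250 bases before to 50 after the start) were found for 68 of the 77 genes. The ETS letters CCGGAAG, searched on both strands, were present for 25 of 68 MRP genes (36.8%), beside 17.1% of the 11790 genes tested that have a promoter in the table and 9.93% of all 27025 genes in it. YY1 letters (AAGATGGCG) were present for 8 (11.8%, beside 2.91% and 1.64%) and NRF1 letters (the palindrome in capitals for Mrpl9 below) for 3 (4.41%, beside 2.04% and 1.07%). The E-box CACGTG, a motif of MYC and related factors, was present for 5 (7.35%, beside 11.1% and 8.09%), and the GC box GGGCGG for 34 (50%, beside 63.3% and 38.2%). The ETS and YY1 letters can overlap by the letters AAG that they share, which was seen in 0 of the promoters, and 2 genes held both motifs. Of the 29 ETS matches 24 began between 60 bases before and 50 bases after the start. The bound of 60 falls in a gap between matches at 56 and 74 bases before it. Positions were not counted for all genes tested, so this count has no background. ETS letters were found for 4 of 9 called genes with a promoter (Mrpl21, Mrpl48, Mrps27 and Mrps33) and for 21 of the 59 others. A match of letters is a description and does not show binding.

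The 100 bases before the start are shown for 5 genes, to set promoters of called genes with and without these letters beside that of Mrpl34, a gene with a positive difference. They are written on the strand of the gene, 5′ to 3′, with the motif in capitals (CTTCCGG is the ETS motif read on the opposite strand). Mrps27 lies at chr13:99344686-99344785 on the + strand, Mrpl48 at chr7:100583131-100583230 on the - strand, Mrpl34 at chr8:71464826-71464925 on the + strand, Mrpl9 at chr3:94443236-94443335 on the + strand and Mrps25 at chr6:92184024-92184123 on the - strand, all in GRCm38.p6.
Mrps27: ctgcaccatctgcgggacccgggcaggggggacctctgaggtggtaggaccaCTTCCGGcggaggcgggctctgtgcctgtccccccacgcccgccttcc
Mrpl48: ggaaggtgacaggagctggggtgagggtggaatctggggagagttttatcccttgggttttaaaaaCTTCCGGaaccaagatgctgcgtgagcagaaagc
Mrpl34: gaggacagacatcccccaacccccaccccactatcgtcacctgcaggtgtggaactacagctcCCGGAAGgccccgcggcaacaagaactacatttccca
Mrpl9: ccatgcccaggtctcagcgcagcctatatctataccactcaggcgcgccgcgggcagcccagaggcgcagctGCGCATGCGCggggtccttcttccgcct
Mrps25: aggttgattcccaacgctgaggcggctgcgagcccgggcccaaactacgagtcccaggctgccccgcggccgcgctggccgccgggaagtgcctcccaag
The ETS match begins 48 bases before the start in Mrps27, 34 in Mrpl48 and 37 in Mrpl34, and the capitals in Mrpl9 mark an NRF1 match that begins 28 bases before it. Mrps25, the gene with the smallest adjusted p, held neither ETS, NRF1 nor YY1 letters in its 300 bases. The ETS letters thus stand in promoters of genes with log2 differences of -0.44, -0.29 and 0.13.

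Of the other components of mitochondrial protein synthesis, most had small negative differences too. The 4 ribosomal subunits with other symbols on the array included 1 that was lower (25%, beside 4.13% of all genes tested). This was Ptcd3, which encodes a pentatricopeptide protein of the small subunit. Ptcd3 measured 11.18, 11.11 and 11.09 in the ERT arrays and 10.86, 10.70 and 10.97 in the arrays labelled CRE (log2 difference -0.28 ± 0.069, adjusted p = 0.0465). Dap3, the GTP-binding subunit, had -0.039 (adjusted p = 0.590) and Chchd1 -0.24 (adjusted p = 0.0679), and neither passed.

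Of 15 translation factors and messenger RNA binding proteins, 1 was lower, 0 were higher and 14 did not pass, with a median log2 difference of -0.15 and all 15 below 0. The gene that passed was Lrpprc, whose protein stabilizes mitochondrial messenger RNAs, with log2 values of 11.45, 11.46 and 11.49 in the ERT arrays and 11.25, 11.10 and 11.27 in the arrays labelled CRE (-0.26 ± 0.055, adjusted p = 0.0343). The elongation factor gene Gfm1 (-0.24, adjusted p = 0.0512) and the release factor gene Mtrf1 (-0.43, adjusted p = 0.0542) did not pass. Of 28 genes of ribosome assembly and ribosomal RNA modification, 1 was lower, 1 higher and 26 did not pass, with a median of -0.11. Called lower were 6.67% of the factor list and 3.57% of the assembly list, near the 4.13% of all genes tested. Among all genes tested, 3.50% were called higher. Fastkd2, which encodes an RNA-binding protein needed for the large subunit, measured 10.27, 10.18 and 10.27 against 9.94, 9.92 and 10.01 (-0.28 ± 0.050, adjusted p = 0.0207). Mpv17l2, which encodes an inner-membrane protein linked to ribosome assembly in human cells, was higher, at 11.36, 11.34 and 11.40 against 11.22, 11.17 and 11.16 (0.18 ± 0.044, adjusted p = 0.0440).

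Upstream of the ribosome lie the genes that maintain and transcribe mitochondrial DNA. Of 10 genes of mitochondrial transcription and DNA maintenance, 2 were lower, 0 higher and 8 did not pass (median -0.16). Tfam, which encodes the factor that packages and transcribes mitochondrial DNA, measured 10.01, 10.17 and 10.04 in the ERT arrays and 9.71, 9.38 and 9.78 in the arrays labelled CRE (-0.45 ± 0.10, adjusted p = 0.0381). Lonp1, which encodes a matrix protease known to degrade TFAM, measured 10.35, 10.25 and 10.28 against 9.95, 9.92 and 10.11 (-0.30 ± 0.061, adjusted p = 0.0315). Of 10 nuclear regulators, 1 was lower, Myc (-0.22 ± 0.042, adjusted p = 0.0259), 0 were higher and 9 did not pass. The next by p were Ppargc1a (-0.19, adjusted p = 0.0555) and Gabpa (-0.17, adjusted p = 0.0832). Of 20 genes of import and mitochondrial content, 2 were lower, 0 higher and 18 did not pass (median -0.14). Both encode small chaperones of the intermembrane space: Timm8a1 (-0.49 ± 0.079, adjusted p = 0.0164) and Timm10 (-0.42 ± 0.077, adjusted p = 0.0223). Called lower were 20% of the transcription and maintenance genes, 10% of the regulators and 10% of the import and content genes. Over all genes tested the share was 4.13%.

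Cytosolic ribosomal proteins, the counterpart outside the organelle, had a median log2 difference of -0.044, with 1 of 61 lower (Rpl12, -0.21) and 1 higher (Rpl3l, a muscle paralogue, 0.24). They were taken by symbol (Rpl or Rps followed by a digit, or Rplp). This let in Rps19bp1, named for a binding protein of a ribosomal protein, which was not called. Nuclear subunits of the respiratory chain had a median of -0.062, with 5 of 81 lower (Ndufb6, Atp5mpl, Uqcr10, Atp5e and Ndufa4) and 1 higher (Cox6b2), and mitochondrial aminoacyl-tRNA synthetases a median of -0.046, with 1 of 16 lower (Yars2, -0.25) and 0 higher. Called lower were 1.64%, 6.17% and 6.25% of these groups in that order, near or below the 4.13% of all genes tested. The difference of the MRP genes from these groups was not tested. Of the genes called in the groups beside the MRPs, Timm8a1 passed in 4 of 6 fits on 5 arrays, Timm10 in 3, and Fastkd2, Tfam, Ndufb6 and Cox6b2 in 2. The other 12 (Ptcd3, Lrpprc, Mpv17l2, Lonp1, Myc, Yars2, Rpl12, Rpl3l, Atp5mpl, Uqcr10, Atp5e and Ndufa4) passed in 1, without the array labelled CRE 3, and none of the genes in either sentence passed without ERT array 1. The count of 5 respiratory chain genes called lower was 0 in 4 of these 6 fits. It was 1 of 81 without ERT array 2, beside 0.762% of all genes tested. Without the array labelled CRE 3 it was 12 of 81, beside 9.05% of all genes tested.

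**Figure D5:**
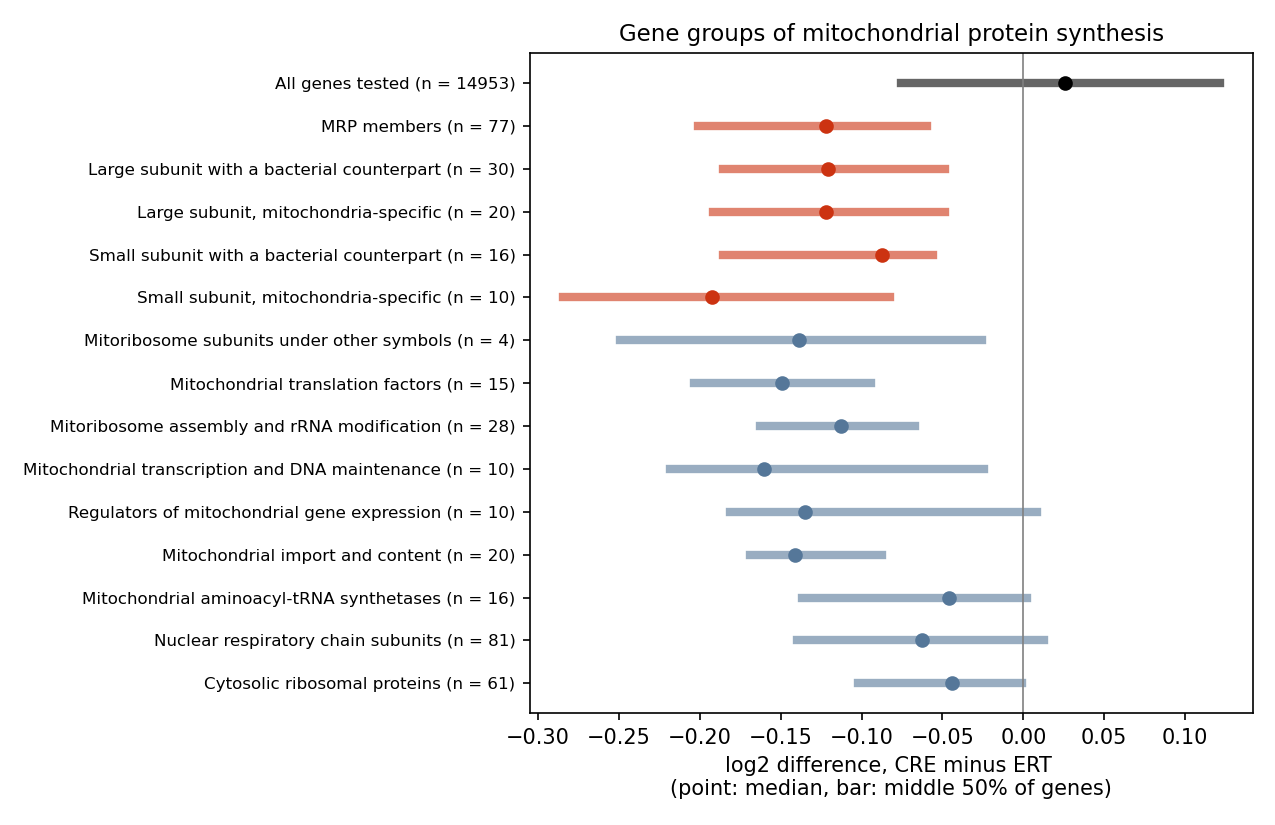
Median (point) and middle 50% (bar) of the log2 differences (x axis, arrays labelled CRE minus ERT arrays) over the genes of each group, with the number of genes tested in brackets; MRP genes are in red, other groups of mitochondrial and cytosolic protein synthesis in blue and all genes tested in black. The MRP median is -0.12 and that of all genes, dim genes included, is 0.026. Blue groups with lower medians are transcription and DNA maintenance (-0.16), translation factors (-0.15), import and content (-0.14), subunits under other symbols (-0.14) and regulators (-0.13). Those nearer 0 are assembly (-0.11), respiratory chain subunits (-0.062), aminoacyl-tRNA synthetases (-0.046) and cytosolic ribosomal proteins (-0.044).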

How the data were processed

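The deposited values, 1 for each of 35556 probe sets on each of 6 arrays, are on the log2 scale (2.88 to 14.9). Per the submitters' processing notes, which give neither order nor settings, RMA and Partek 6.5 were used. No genome build of the annotation was found in the labels. Probe sets were named through the platform's annotation table: 21789 carried 1 gene symbol, 1621 several and 12146 none. All 77 MRP symbols matched the RefSeq gene table. Genes with a mean log2 value under the 25th percentile (7.35) were left out, and 14953 were tested with limma 3.58.1 in R 4.3.3 (lmFit, eBayes, 4.31 prior degrees of freedom), two-sided, arrays labelled CRE minus ERT arrays, with Benjamini-Hochberg adjustment over all 14953. Tables and figures used Python 3.11.15, pandas 2.3.3 and matplotlib 3.10.9. Arrays carry no count depth, and 3 per group limit the precision.

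The members, gene lists and alternatives were chosen with earlier results of these data known. Named were called members, the 10 lowest and 10 highest differences, the 3 dimmest and 3 brightest members, genes with further probe sets and, in other lists, called genes and the next by p. Mrps17, Mrpl45 and the genes named just outside the threshold were added after their values were seen. Tested on simulated data for this comparison over 14953 genes, the fit found 37% of the 100 genes given a log2 change of 0.3 and 91% of the 100 given 0.6, and made 6 false calls. The simulated noise was independent between genes, unlike the deviations that many genes share on an array here. These rates may therefore not hold for the real arrays. Correlations of same-numbered arrays' deviations from their group means were 0.069, -0.17 and -0.40, and the numbers were not taken as pairs. Alternatives were other filters, probe set means, quantile and loess normalization, centring, array weights, a trended robust prior, the replicate block, each array left out and a threshold of 0.01.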

Additional observations from a re-analysis of the deposited data

How the results depend on the processing

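The count of 10 MRP genes called lower was 1 without the filter on dim genes (1.3%, all genes 1.25%), 0 at a threshold of 0.01 (0.609% of all genes), 21 with trend and robust estimation (27.3%, all genes 8.68%), 28 with array weights (36.4%, all genes 11.5%) and 43 after centring (55.8%, all genes 18.7%), and 0 to 22 with an array left out. It was 15 with the filter at the 50th percentile (19.5%, all genes 10.1%), 9 after quantile normalization (11.7%, all genes 4.21%) and 10 with probe set means and with loess. With the replicate number as a block it was 0, in a fit that called 147 genes in all; the labels do not say that a number marks a shared source. By deviations from group means, the array labelled CRE 1 correlated best with ERT array 1 (0.069), CRE 2 with ERT 3 (0.43) and CRE 3 with ERT 1 (0.28). The count called higher was 0 in all of these except with array weights, where it was 2 of 77 (Mrpl33 and Mrpl34). That setting called 2273 of all 14953 genes higher. Centring moved the median of all genes by -0.10, to -0.077, and that of the MRP genes to -0.22. It shifts every gene on an array equally, so the MRP median minus that of all genes had to stay at -0.15. That gap was -0.093 after quantile normalization and after loess, and -0.095 with the filter at the 50th percentile. With centring, calls over all genes went from 523 higher and 617 lower to 223 higher and 2797 lower. The filters, trend and robust estimation, the replicate block and the threshold cannot move the log2 differences of the MRP genes. Their median of -0.12 was therefore fixed in those settings. In the other settings it was below 0 too, from -0.094 after loess to -0.22 after centring. Signs that turned, all in genes not called, were after centring those of Mrpl12 (-0.028), Mrpl40 (-0.062), Mrpl43 (-0.099), Mrpl52 (-0.098), Mrpl55 (-0.076), Mrps12 (-0.054) and Mrps16 (-0.028), with array weights Mrpl43 (-0.011) and Mrpl52 (-0.0013), after loess Mrpl10 (0.016) and Mrps12 (-0.015), and after quantile normalization Mrps12 (-0.030). Of the genes not described in the report, Mrpl1 and Mrpl49 turned positive after loess and quantile normalization, Mrpl14 after loess, Mrps9 after quantile normalization and Mrpl49 with array weights. With an array left out, 0 to 4 of the 77 turned positive (Mrpl1, Mrpl49, Mrps9 and Mrps11 without the array labelled CRE 2) and 0 to 3 negative, none of them called, with sizes of at most 0.033 after the turn. For the genes described in the report among these, log2 differences ranged from -0.034 to 0.021 for Mrpl10, from -0.0053 to 0.018 for Mrpl43, from -0.019 to 0.025 for Mrpl52 and from -0.015 to 0.068 for Mrpl55. The cause of these changes was not tested, except that a filter changes the number of genes tested and a left-out array the number of samples.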
